A study of Homo sapiens with 12 samples.

Results

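Keratins are the intermediate filament proteins of epithelial cells, and the 10 keratin genes described here are 6 of the basal and stratified epithelium (KRT5, KRT14, KRT15, KRT16, KRT17 and KRT6A) and 4 of simple, ductal epithelium (KRT7, KRT8, KRT18 and KRT19). They were chosen by name, and the transcript values of each were added up to the gene, giving 10 of the 39099 genes in the table. RNA-seq had been done on a pair of established cell lines from human pancreatic cancer, AsPC-1 and PANC-1 (ASPC1 and PANC1 in the labels), each as a mock control, with TAp63 overexpressed or with deltaNp63 (deltaNP63 in the labels) overexpressed. Each of the 6 groups had 2 libraries, which the labels call biological replicates. The labels do not say whether they came from separate cultures, how the constructs were delivered, or for how long the cells were kept afterwards. p-values therefore set differences between groups against the spread between these samples, part of which may be technical. All groups are bulk RNA of 1 line, in which fewer cells with a transcript and less transcript per cell cannot be told apart.

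A keratin filament is built from pairs of a type I and a type II keratin, and a cell type is recognised by the pairs it makes. KRT8 (type II) pairs with KRT18 or KRT19 (type I) in simple epithelium such as the pancreatic duct, where KRT7 is the other ductal type II keratin. KRT5 (type II) pairs with KRT14 or KRT15 (type I) in the basal layer of stratified epithelium, and KRT6A (type II) pairs with KRT16 or KRT17 (type I) in wounded or hyperproliferative epithelium. p63 is the master transcription factor of that basal layer, KRT5 and KRT14 are its best-known keratin targets, and basal keratins mark the squamous subtype of pancreatic cancer. The series asks about p63 and that subtype, so the comparison was whether either isoform shifted the cells from ductal towards basal keratins.

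Sequence likeness bears on how far the values of the members can be told apart, so it is shown first. The type I genes KRT15, KRT19, KRT14, KRT16 and KRT17 lie on the minus strand of chromosome 17 between 41513745 and 41624842 in GENCODE v44 (hg38). The type II genes and KRT18 lie on chromosome 12, from KRT7 at 52232520 to KRT18 at 52952906. The coding sequences of KRT14 and KRT16 were identical at 88.7% of aligned bases, those of KRT14 and KRT17 at 85.4% and those of KRT16 and KRT17 at 79.5%. Their longest common stretch is 53 coding bases, in capitals below with 20 bases on either side in lower case.
KRT14: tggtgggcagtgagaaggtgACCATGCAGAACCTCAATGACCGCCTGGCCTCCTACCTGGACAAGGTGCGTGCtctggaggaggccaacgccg
KRT16: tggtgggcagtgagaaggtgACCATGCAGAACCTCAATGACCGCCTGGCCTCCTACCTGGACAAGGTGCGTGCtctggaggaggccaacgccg
KRT17: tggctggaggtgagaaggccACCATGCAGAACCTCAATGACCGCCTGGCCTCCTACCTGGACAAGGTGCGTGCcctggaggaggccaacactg
A read inside the capitals fits all 3 transcripts equally. Over the whole reference transcript, 39.1% of the 31-base words of KRT16, 37.7% of those of KRT17 and 46.8% of those of KRT14 also occurred in a transcript of another gene. KRT6A shared 52.7% of its words, 45.8% with KRT6C and 40.5% with KRT6B, while KRT5 shared 8.2%, KRT15 3.8% and KRT7 5.3%. KRT8 and KRT18 shared 55.2% and 66.9%, mostly with their own processed pseudogenes, and KRT19 shared 11.4%. The pseudogenes nevertheless took little signal: at most 0.455% of the sum of KRT8 and its 50 listed pseudogenes, and at most 0.142% for KRT18 and its 67. The shared words make the split of reads among KRT14, KRT16 and KRT17 uncertain, and separately that among KRT6A, KRT6B and KRT6C. The amount was not measured. The KRT8 and KRT18 genes overlap on opposite strands. The transcript with most KRT8 signal lies at 52897194 to 52906618, outside the KRT18 gene at 52948871 to 52952906.

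The promoter of KRT5 is shown because KRT5 is the textbook basal target of p63 and its level, given below, stayed near 0. RefSeq's table (GRCh38.p14) held 2 of the 10 members, KRT5 and KRT8. The KRT8 entry lies upstream of the start of the transcript that carried nearly all KRT8 signal and is not printed. The KRT5 window, chr12:52520345-52520644 on the minus strand, is written with CATG, the core letters of p53-family response elements, in capitals.
KRT5: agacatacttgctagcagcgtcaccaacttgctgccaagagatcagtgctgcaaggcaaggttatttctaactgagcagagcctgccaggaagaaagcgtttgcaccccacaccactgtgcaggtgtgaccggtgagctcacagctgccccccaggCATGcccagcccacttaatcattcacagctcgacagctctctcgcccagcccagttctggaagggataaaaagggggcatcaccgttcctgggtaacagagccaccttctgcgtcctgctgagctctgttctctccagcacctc
It holds CATG 1 time, and 54.9% of the 35116 promoters in the table hold that motif on either strand (CATG reads the same on both). The paired form, with a second CATG after 6 bases of any kind, was not in this window and occurs in 0.4% of all promoters. TATAAA (11.5% of promoters) and TGANTCA (7.7%), searched on both strands, were also not in it.

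Values are TPM, a relative abundance scaled to the same total in every library and already divided by transcript length, so levels can be compared between genes. Read depth is not recoverable from TPM and is unknown here, and no counting interval was computed. The TP63 gene was at 0.0245 to 1.10 TPM in the 4 mock libraries, 102 to 342 TPM with TAp63 and 245 to 1187 TPM with deltaNp63, so TP63 RNA was high in every library labelled with a construct, though the gene sum does not tell the isoforms apart. EPCAM, CDH1, ESRP1 and CLDN4, the epithelial markers, summed to between 1845 and 2032 TPM in the AsPC-1 libraries and between 153 and 170 TPM in PANC-1, where ESRP1 was at most 0.484 TPM. Mesenchymal markers (VIM, ZEB1, CDH2 and FN1) summed to 2015 to 2378 TPM in AsPC-1 and 4336 to 4986 TPM in PANC-1. PTPRC and CD3E, which define leukocytes, did not exceed 0.0552 TPM in any library, while CD68 reached 288 TPM. Endocrine, endothelial and acinar markers summed to at most 1.23 TPM in any library, without the endothelial marker PECAM1, which was not among the summed genes. Fibroblast markers summed to at most 1.53 TPM in AsPC-1 and to 81.8 to 112 TPM in PANC-1, nearly all of it COL1A1.

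In both lines the keratin complement was ductal with every treatment, and no basal keratin reached the level of a ductal one other than KRT7. KRT8, KRT18 and KRT19 stood at 707 TPM or more in all 12 libraries, KRT15, KRT16, KRT17 and KRT7 at 35.3 TPM or less, and KRT5, KRT14 and KRT6A below 1 TPM throughout. The 6 basal genes together held 0.582% ± 0.0821 (SD, n = 2) of the members' TPM in AsPC-1 mock, 0.607% ± 0.0454 with TAp63 and 0.695% ± 0.0390 with deltaNp63. In PANC-1 they held 0.628% ± 0.000975 with mock, 0.638% ± 0.0354 with TAp63 and 0.821% ± 0.0693 with deltaNp63 (SD, n = 2). The basal share therefore stayed under 1% in every library, and its highest values, 0.870% and 0.772%, were the 2 PANC-1 deltaNp63 libraries, which did not overlap the PANC-1 mock libraries at 0.628% and 0.629%. The AsPC-1 deltaNp63 libraries, at 0.723% and 0.668%, also did not overlap AsPC-1 mock at 0.524% and 0.640%. Their basal sums did overlap, at 41.0 and 57.6 TPM against 44.8 and 55.9 TPM with mock. The share of 0.723% was in replicate 1, which held 5634 TPM of simple keratins against 8497 and 8678 TPM with mock. In PANC-1 the basal sums were 30.3 and 29.7 TPM with deltaNp63 against 21.8 and 23.9 TPM with mock. With 2 libraries against 2 no permutation test of the basal share could pass, and none was made. How many of all genes have groups that do not overlap was not counted. A lack of overlap, here and below, is therefore a description only.

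**Figure D1:**
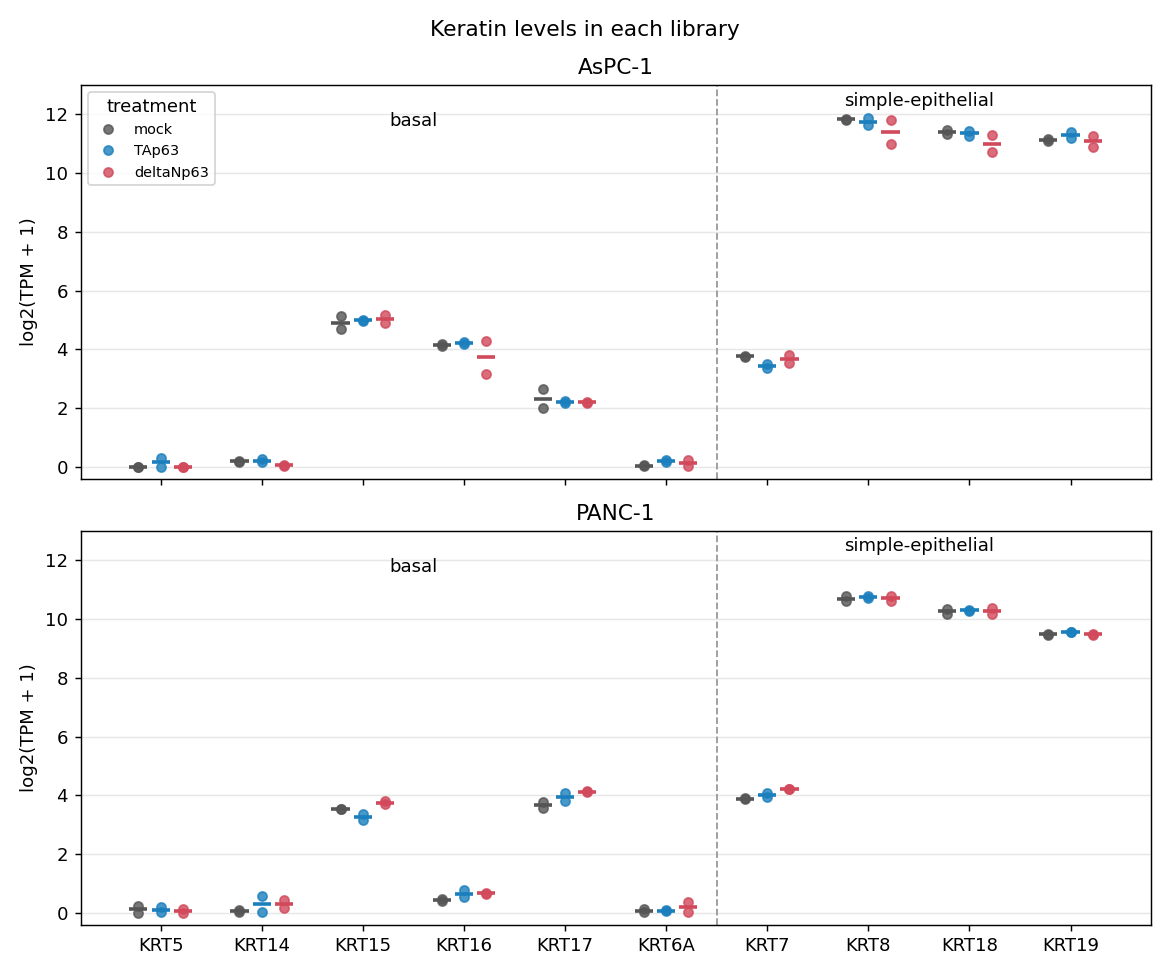
Level of each keratin as log2(TPM + 1) in every library of AsPC-1 (top) and PANC-1 (bottom); points are single libraries, short lines the means of 2, colours the treatments, and the dashed line divides basal from simple-epithelial members. KRT5, KRT14 and KRT6A lie near 0 and KRT8, KRT18 and KRT19 far above the rest with every treatment.

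KRT5, KRT14 and KRT6A were accounted for as levels only, because none of them reached 1 TPM in any library, and testing required 1 TPM in at least 2. KRT5, the basal type II keratin, was listed at 0 in 7 of 12 libraries, and its highest value was 0.240 TPM, in AsPC-1 TAp63 replicate 2. In the other TAp63 and deltaNp63 libraries it reached at most 0.145 TPM, against up to 0.175 TPM with mock in PANC-1. KRT14, its usual partner, lay between 0.0254 and 0.482 TPM, and KRT6A between 0.0175 and 0.298 TPM. The highest KRT14 value, 0.482 TPM, was PANC-1 TAp63 replicate 1, while replicate 2 of that group had 0.0254 TPM, so the group spanned both the top and nearly the bottom of the range. In deltaNp63 libraries KRT14 was at 0.114 and 0.356 TPM in PANC-1, above both mock libraries at 0.0284 and 0.0739 TPM, and at 0.0507 and 0.0254 TPM in AsPC-1, below both mock libraries at 0.125 and 0.150 TPM. The KRT6A values of the treated and mock groups overlapped in PANC-1. In AsPC-1, KRT6A was at 0.129 and 0.166 TPM with TAp63 against 0.0428 and 0.0183 TPM with mock. Those groups did not overlap, at levels where 31-base words shared with KRT6C make up 45.8% of the transcript.

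The other 7 members were tested with limma on log2(TPM + 1) in 1 model of all 12 libraries, together with all 14767 genes that reached 1 TPM in at least 2 libraries. Benjamini-Hochberg adjustment ran over those genes within a comparison, with 0.05 as the threshold and two-sided p-values. In AsPC-1, 0 of the 7 tested members passed with TAp63 against mock, where 0.637% of all genes tested passed. With deltaNp63 against mock in AsPC-1, 0 of 7 passed, against 7.14% of all genes. In PANC-1, 0 of 7 passed with TAp63 (0.00677% of all genes) and 0 of 7 with deltaNp63 (0.0406%). At an unadjusted limma p under 0.05 there was 1 member with TAp63 in AsPC-1 (KRT7), 1 with deltaNp63 in AsPC-1 (KRT18), 0 with TAp63 in PANC-1 and 2 with deltaNp63 in PANC-1 (KRT17 and KRT7). The median log2 fold change of the 7 was -0.048 with TAp63 and -0.13 with deltaNp63 in AsPC-1, beside -0.076 and -0.12 for all genes tested. In PANC-1 it was 0.074 and 0.23, beside 0 and -0.015 for all genes.

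**Figure D2:**
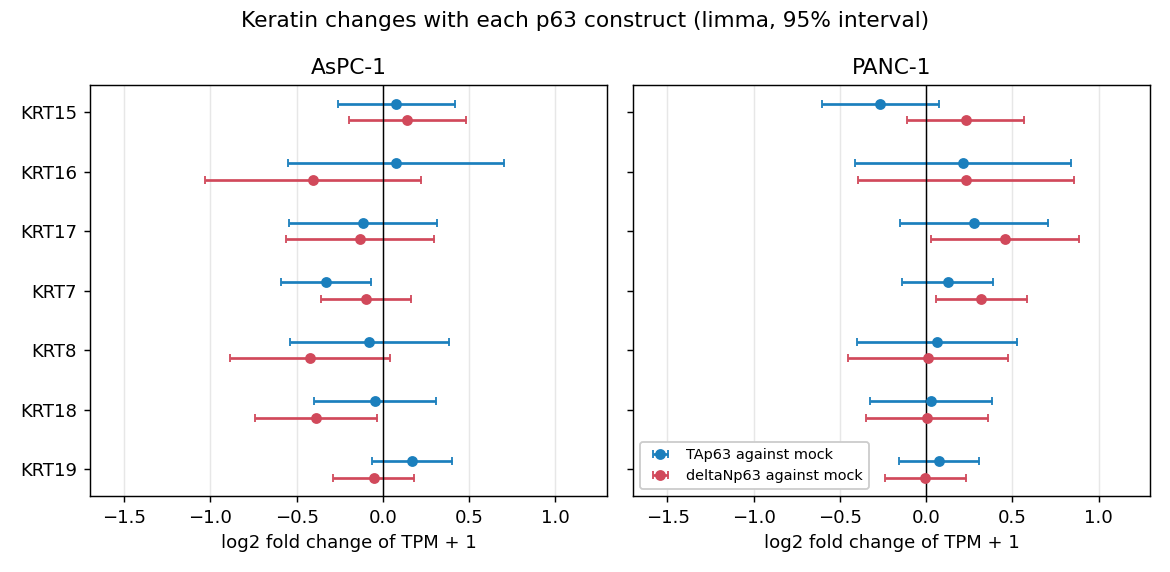
Log2 fold change of TPM + 1 against mock for the 7 tested keratins in each cell line, with the 95% interval of each gene from limma, not adjusted for the number of genes; blue is TAp63 and red deltaNp63. The fold changes lie between -0.43 and 0.45, and none passed the adjusted threshold.

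Among the basal keratins with measurable levels, KRT15 was the most abundant. KRT15 encodes a type I keratin of basal cells. In AsPC-1 it was at 24.6 and 34.2 TPM with mock, 30.2 and 31.1 TPM with TAp63, and 29.2 and 35.3 TPM with deltaNp63, so the mock libraries spanned nearly all the treated ones. In PANC-1 it was at 10.6 and 10.5 TPM with mock, 7.997 and 9.24 TPM with TAp63, and 12.9 and 12.1 TPM with deltaNp63. The 3 PANC-1 groups did not overlap, with TAp63 lowest and deltaNp63 highest. TAp63 was below deltaNp63 there by -0.49 on the log2 scale (SE 0.152, unadjusted limma p 0.00898, adjusted p 1), the 1 member under 0.05 before adjustment in that comparison, in which 0 of 7 passed and 0.0271% of all genes did. On the main coding transcript, ENST00000393976, alone the difference had the other sign, 0.16 (limma adjusted p 1). Most KRT15 signal was on transcripts annotated as retained introns or targets of nonsense-mediated decay: the coding transcripts ENST00000393976 and ENST00000254043 held 22.1% to 43.7% of it in a library.

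KRT16, a type I keratin of wounded and hyperproliferative epithelium, was present in AsPC-1 and nearly absent in PANC-1. In AsPC-1 mock it had 16.998 and 16.3 TPM, then 17.3 and 17.9 TPM with TAp63, and 8.01 and 18.7 TPM with deltaNp63. The deltaNp63 libraries thus gave the lowest and the highest AsPC-1 value. PANC-1 libraries lay at 0.317 and 0.399 TPM with mock, 0.697 and 0.463 TPM with TAp63, and 0.605 and 0.576 TPM with deltaNp63. Each treated PANC-1 library was above both mock libraries, with log2 fold changes of 0.22 and 0.23 (limma adjusted p 1 for each). The 95% intervals ran from -0.41 to 0.84 and from -0.40 to 0.86, and all of these levels are below 1 TPM, where the pseudocount of 1 shrinks a fold change.

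KRT17, a type I keratin of activated and basal cells that is widely used as a squamous marker, was the 1 tested basal member with more signal in PANC-1. In PANC-1 it was at 10.9 and 12.7 TPM with mock, 16.03 and 12.98 TPM with TAp63, and 16.5 and 16.4 TPM with deltaNp63. All 4 treated libraries were above both mock libraries. The log2 fold change was 0.28 with TAp63 (SE 0.192, unadjusted p 0.182) and 0.45 with deltaNp63 (SE 0.192, unadjusted limma p 0.0400), and limma adjusted p was 1 for each. In AsPC-1 it was at 2.99 and 5.27 TPM with mock, 3.72 and 3.51 TPM with TAp63, and 3.63 and 3.52 TPM with deltaNp63, with every treated library inside the range of the mock libraries.

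KRT8, the ductal type II keratin, was the most abundant member in each of the 12 libraries. In AsPC-1 it was at 3702 and 3575 TPM with mock, 3177 and 3738 TPM with TAp63, and 2034 and 3609 TPM with deltaNp63. In PANC-1 it was at 1566 and 1743 TPM with mock, 1753 and 1697 TPM with TAp63, and 1575 and 1762 TPM with deltaNp63. The PANC-1 treatments overlapped, and in AsPC-1 a single library, deltaNp63 replicate 1, lay far below the other 5. With deltaNp63 in AsPC-1 the log2 fold change of KRT8 was -0.43, with a 95% interval from -0.89 to 0.04 (limma adjusted p 0.202). In PANC-1 it was 0.01, with an interval from -0.45 to 0.48.

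KRT18, the type I partner of KRT8, followed the same order of libraries in the deltaNp63 group. In AsPC-1 it was at 2593 and 2798 TPM with mock, 2469 and 2749 TPM with TAp63, and 1682 and 2509 TPM with deltaNp63, so both deltaNp63 libraries were below both mock libraries. The log2 fold change there was -0.39 (SE 0.158, 95% interval -0.74 to -0.04, unadjusted limma p 0.0339, adjusted p 0.136). In PANC-1 its 6 libraries lay between 1147 and 1332 TPM, both of these in the deltaNp63 group. The ratio of KRT8 to KRT18 TPM stayed between 1.21 and 1.44 in all 12 libraries, the lowest being AsPC-1 deltaNp63 replicate 1. Type II members together had 0.563 to 0.770 times the TPM of type I members in AsPC-1 and 0.834 to 0.859 times in PANC-1.

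KRT19, the other ductal type I keratin, was at 2189.8 and 2293 TPM in AsPC-1 mock, 2364 and 2681 TPM with TAp63, and 1908 and 2441 TPM with deltaNp63. Both TAp63 libraries were above both mock libraries, with a log2 fold change of 0.17 and a 95% interval from -0.07 to 0.40 (limma adjusted p 0.488). PANC-1 held 707 and 722 TPM with mock, 756 and 748 TPM with TAp63, and 712 and 709.7 TPM with deltaNp63. Both TAp63 values lay above the other 4 PANC-1 values, with a log2 fold change of 0.07 and an interval from -0.16 to 0.31 (limma adjusted p 1).

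KRT7, the ductal type II keratin used to tell pancreatic and biliary from intestinal epithelium, had a far lower sum than its relatives. The deposited values held 8 of its 13 GENCODE transcripts, beside 12 of 18 for KRT8. Rows without a GENCODE match were not summed, so the KRT7 sum may be incomplete. In AsPC-1 KRT7 was at 12.5 and 12.8 TPM with mock, 9.24 and 10.5 TPM with TAp63, and 10.5 and 13.1 TPM with deltaNp63. In PANC-1 it was at 13.7 and 13.95 TPM with mock, 15.8 and 14.5 TPM with TAp63, and 17.5 TPM in both deltaNp63 libraries. TAp63 lay below mock in AsPC-1 and above it in PANC-1, without overlap in either line, and deltaNp63 lay above both in PANC-1. The log2 fold change with TAp63 was -0.33 in AsPC-1 (SE 0.117, unadjusted limma p 0.0183, adjusted p 0.229) and 0.12 in PANC-1 (adjusted p 1). With deltaNp63 it was -0.10 in AsPC-1 (adjusted p 0.638) and 0.32 in PANC-1 (unadjusted limma p 0.0217, adjusted p 1).

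Whether a construct acted differently in PANC-1 and in AsPC-1 was tested in the same model. For TAp63, 0 of 7 members passed, against 0.0745% of all genes, and for deltaNp63 0 of 7, against 0.582%. KRT7 was the 1 member with an unadjusted limma p under 0.05 in each. Its effect in PANC-1 minus that in AsPC-1 was 0.45 for TAp63 (95% interval 0.08 to 0.83, adjusted p 0.420) and 0.42 for deltaNp63 (interval 0.05 to 0.79, adjusted p 0.266). These comparisons and those against mock share the mock libraries. Between TAp63 and deltaNp63 in AsPC-1, 0 of 7 passed with limma and 0 had an unadjusted p under 0.05, against 0.0203% of all genes passing.

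AsPC-1 deltaNp63 replicate 1 stood apart from its partner, and the values of KRT8, KRT18 and KRT16 in that group rest on it. The 2 libraries correlated at Pearson r 0.987 over the genes tested, where the other 5 pairs lay between 0.991 and 0.994, and their median absolute difference was 0.211 on the log2 scale against 0.092 to 0.148. Without replicate 1, deltaNp63 against mock in AsPC-1 gave log2 fold changes of -0.01 for KRT8, -0.10 for KRT18 and 0.16 for KRT16 (limma adjusted p 0.998, 0.715 and 0.631). Without replicate 2 the same values were -0.84, -0.68 and -0.97, all past the threshold (limma adjusted p 0.00151, 0.00335 and 0.00212). In such fits the lone library is assumed to vary like the other groups. All genes followed the same split: 1055 passed with both libraries, 114 without replicate 1 and 4057 without replicate 2. Replicate 1 had 12212 genes at 1 TPM or more, beside 12292 in its partner, 12259 in AsPC-1 TAp63 replicate 1 and up to 12525 in AsPC-1. It had the largest share of KRT18 on retained-intron transcripts, 2.07% against 1.03% to 1.42% in the other AsPC-1 libraries. Its KRT18 sum, the base of that share, was also the lowest in AsPC-1, at 1682 TPM. Over all transcripts its retained-intron share of TPM was 4.58%, inside the AsPC-1 range of 4.50% to 4.82%. Its mitochondrial share of TPM, 2.76%, was inside the AsPC-1 range of 2.40% to 3.14%. The part of these measures in the keratin values was not tested.

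**Figure D3:**
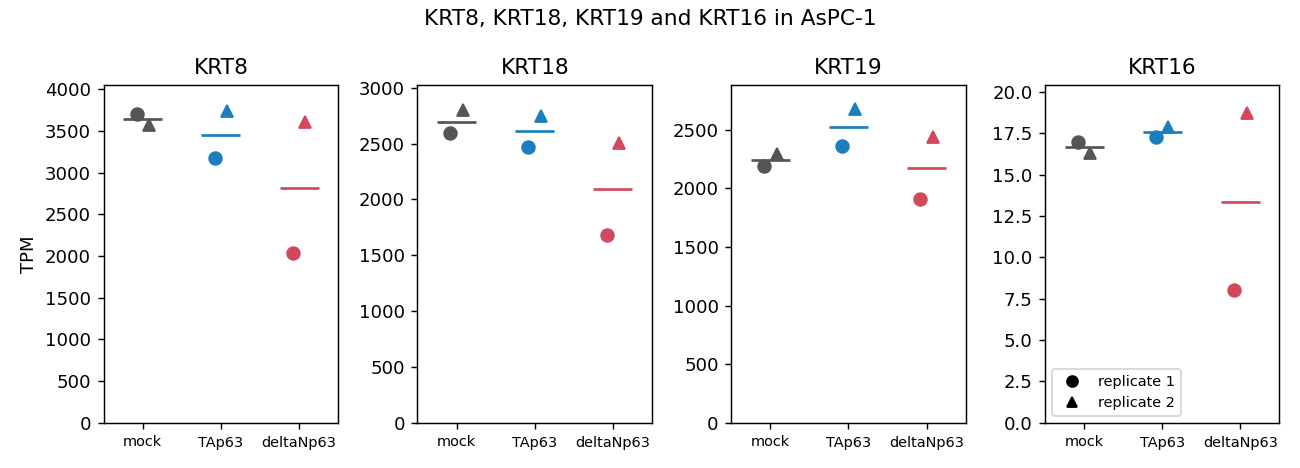
TPM of KRT8, KRT18, KRT19 and KRT16 in the 6 AsPC-1 libraries by treatment; circles are replicate 1, triangles replicate 2 and lines the means of 2. In the deltaNp63 group replicate 1 lies below replicate 2 in each panel, with KRT8 at 2034 against 3609 TPM and KRT16 at 8.01 against 18.7 TPM.

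The keratin differences that passed the test lay between the cell lines. In mock libraries 6 of the 7 tested members differed between PANC-1 and AsPC-1, where 72.5% of all genes tested did, so a share this high is not particular to keratins. KRT16 entered the test through its AsPC-1 libraries alone, all PANC-1 libraries being below 1 TPM, so its difference was in part fixed by the filter. KRT17 was higher in PANC-1 and KRT8, KRT18, KRT19, KRT15 and KRT16 were lower; of all genes, 44.6% were higher and 27.9% lower. The median log2 fold change of the 7 was -1.14, beside 0.24 for all genes tested. KRT16 was at -3.70, with mean TPM 46.6 times as high in AsPC-1, which is given as a description because of that filter. KRT19 was 3.14 times as high in AsPC-1 (log2 fold change -1.65, limma adjusted p 2.64e-07), KRT15 2.79 times, KRT8 2.20 times and KRT18 2.19 times. KRT17 was 2.85 times as high in PANC-1 (log2 fold change 1.35, SE 0.192, limma adjusted p 0.000111). Every AsPC-1 library was above every PANC-1 library for KRT8, KRT18, KRT19, KRT15 and KRT16, and below every one for KRT17. The 10 members made up 0.864% ± 0.0136 of all TPM in AsPC-1 mock and 0.364% ± 0.0235 in PANC-1 mock (SD, n = 2). The cell line is also the only label that divides these 2 groups, so anything else that differed between the cultures cannot be told apart from it.

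KRT7 was the 1 tested member whose gene level did not pass between the lines, at 0.12 (SE 0.117, limma adjusted p 0.373), and its transcripts differed in opposite directions. The full coding transcript of 9 exons (ENST00000331817) lay between 3.07 and 4.80 TPM in AsPC-1 and between 0.802 and 1.36 TPM in PANC-1. A transcript of 4 exons and 816 bases with no defined coding sequence (ENST00000552322) lay between 4.88 and 7.55 TPM in AsPC-1 and between 11.0 and 13.8 TPM in PANC-1. Tested as transcript rows, where 44.7% of 51675 rows passed, the coding transcript was lower in PANC-1 mock, at -1.25 on the log2 scale (SE 0.173, limma adjusted p 0.000448). The 4-exon transcript was higher there by 0.52 (SE 0.129, limma adjusted p 0.0107). The 4-exon transcript carried 52.8% to 59.9% of KRT7 signal in the AsPC-1 libraries and 76.5% to 83.8% in PANC-1, and the coding transcript 32.9% to 38.7% and 4.59% to 9.72%. Of the 31-base words of the 4-exon transcript 62.8% also occur in the coding one, so the split between them depends on how reads were assigned, which was not tested. With deltaNp63 in PANC-1, where the KRT7 sum was higher, the log2 fold change of the coding transcript was -0.25 (limma adjusted p 1). KRT7 also overlaps KRT7-AS, KRT86 and KRT87P.

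**Figure D4:**
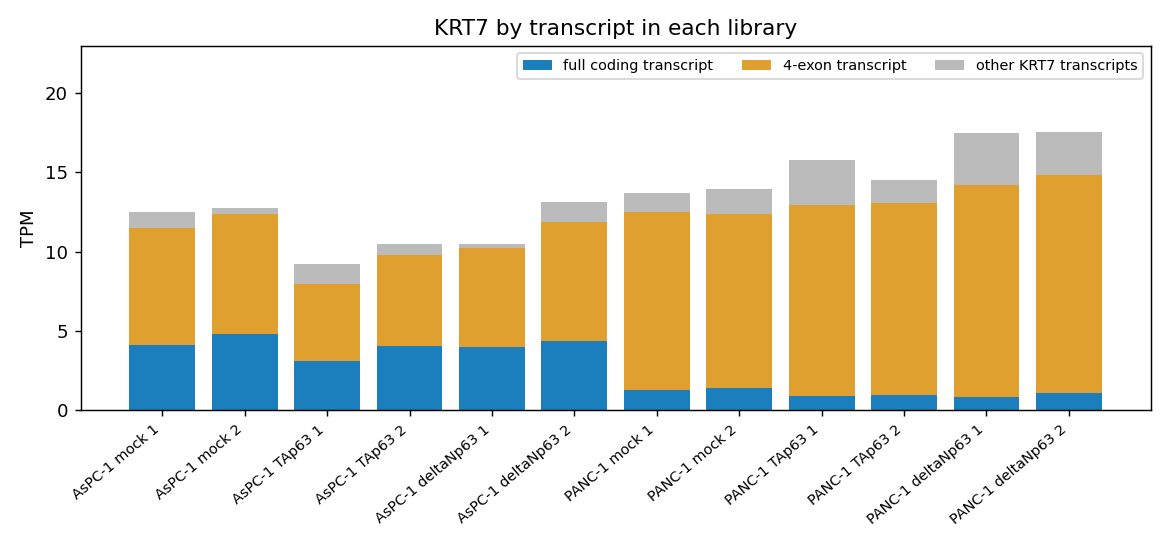
TPM of KRT7 in each library, stacked by transcript (the full coding transcript in blue, the 4-exon transcript in orange, all others in grey). The stacks reach 9.24 to 17.5 TPM, with the coding transcript at most 1.36 TPM in PANC-1 and at least 3.07 TPM in AsPC-1.

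Of the other tested members, KRT15 was divided among several transcripts, as given above, and 4 had 1 dominant transcript. A single coding transcript held 96.7% of KRT8, 99.0% of KRT19, 99.5% of KRT17 and 94.4% of KRT16. KRT18 was divided between the coding transcripts ENST00000388835 with 57.2% and ENST00000388837 with 41.7%. Its retained-intron transcript ENST00000548015 lay between 17.6 and 27.5 TPM in AsPC-1 and between 2.78 and 4.84 TPM in PANC-1, a mock difference of -2.13 on the log2 scale (limma adjusted p 0.000143), against -1.13 for the gene. The main coding transcript of KRT15 was also lower in PANC-1 mock, at -1.10 on the log2 scale (limma adjusted p 0.000701).

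Other keratin genes were counted in the same way. Of 44 other keratin genes, 5 reached the level for testing (KRT10, KRT20, KRT23, KRT80 and KRT81), and none of the others exceeded 0.979 TPM. With limma, 0 of the 5 passed in any comparison of a construct with mock, and 1 had an unadjusted p under 0.05, with deltaNp63 in AsPC-1. KRT80 lay between 33.6 and 57.8 TPM and KRT10 between 23.2 and 37.7 TPM over all libraries. KRT23, a type I keratin, was at 34.6 to 84.9 TPM in AsPC-1 and at most 0.0720 TPM in PANC-1, a mock difference of -6.29 on the log2 scale. KRT20, an intestinal type I keratin, was lower in PANC-1 mock by -0.99 and KRT81, a hair type II keratin, higher by 0.93. KRT23, KRT20 and KRT81 each reached 1 TPM in 1 line only and entered the test through it, so the filter in part fixed their differences, which are given as a description.

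Proteins that anchor keratin filaments to desmosomes and hemidesmosomes were counted beside the keratins. Of 11 such genes 9 were tested, and 1 passed against mock: EVPL (envoplakin) fell by 0.80 on the log2 scale with deltaNp63 in AsPC-1 (limma adjusted p 0.0334). Between the mock groups, where 44.6% of all genes were higher and 27.9% lower in PANC-1, 3 were higher and 5 lower. DSP (desmoplakin) was at -2.84 and PPL (periplakin) at 2.16. PKP2 (plakophilin 2) was at -4.59, but it was at most 0.505 TPM in PANC-1 and entered the test through AsPC-1 alone. Of 12 other intermediate filament genes 7 were tested, and 3 passed, all lower, with deltaNp63 in AsPC-1, where 7.14% of all genes passed and the median log2 fold change of all genes was -0.12. They were the lamin genes LMNB1 at -1.04 and LMNB2 at -0.84 and the astrocyte filament gene GFAP at -0.55. GFAP lay between 0.580 and 1.63 TPM in the AsPC-1 libraries, near the level required for testing. Without AsPC-1 deltaNp63 replicate 1, EVPL was at -0.55, LMNB1 at -0.72, LMNB2 at -0.72 and GFAP at -0.60, and none of the 4 passed (limma adjusted p 0.114 to 0.169). GFAP did not pass without replicate 2 either (-0.50, limma adjusted p 0.0623), and a fit of only the groups compared called 0 of all genes. In PANC-1 mock 6 of the 7 were higher than in AsPC-1 mock and 0 lower, beside 44.6% and 27.9% of all genes. LMNB1 was at 1.97. NES (nestin) at 4.21 and SYNM (synemin) at 3.11 stayed below 1 TPM in AsPC-1 and entered the test through PANC-1 alone. Of 16 epithelial transcription factor genes 13 were tested, and TP63 was the 1 that passed against mock with each construct in each line. TP63 is the gene that was overexpressed, so that outcome was fixed by the design. It was at most 1.10 TPM with mock and entered the test through the libraries with a construct. Between the mock groups 5 were higher and 7 lower in PANC-1, beside 44.6% and 27.9% of all genes. ELF3 was at -7.85 and KLF5 at -7.04. EHF was at -7.81, with at most 0.190 TPM in PANC-1, and entered the test through AsPC-1 alone. So did OVOL1, with at most 0.242 TPM in PANC-1. TFAP2C and GATA3, with at most 0.0145 and 0.435 TPM in AsPC-1, entered it through PANC-1 alone. The filter therefore in part fixed the counts of these transcription factors.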

How the data were processed

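Per the labels' protocols, total RNA went into a stranded mRNA library kit. The authors deposited TPM values for 153329 Ensembl transcripts in 12 libraries, each column summing to 1000000. The quantifier, build and annotation are not given in the sources used here, and TPM keeps no depth, so precision comes from the replicates alone. Transcripts were paired with genes through GENCODE v44 (hg38), which matched 139819 (91.2%) holding 89.6% to 90.5% of TPM, and summed to 39099 genes. Values were analysed as log2(TPM + 1), which understates changes of low genes. The 14767 genes at 1 TPM in at least 2 libraries were fitted with limma 3.58.1 in R 4.3.3 (6 group means, trend, 9 comparisons, Benjamini-Hochberg within each). The fit was tested on simulated data. Replicate numbers were not used to pair the libraries in the main fit. The members and gene lists were chosen with earlier results of these data known. Every member was described; from other lists, up to 3 passing genes with the largest fold change per comparison were named. Sequences came from GENCODE transcripts and RefSeq promoters. Alternatives were the low-value filter, pseudocount, normalization, variance model, libraries in the fit, replicate block, left-out libraries, added pseudogenes and a fold threshold. Transcript rows were tested after seeing the data.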

Additional observations from a re-analysis of the deposited data

How the results depend on the processing

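The number of members past the threshold stayed at 0 in the 8 comparisons that involve p63 and at 6 between the mock groups under every alternative on gene sums other than leaving out a library. On the main coding transcript of each gene, KRT7 passed between the mock groups as well as those 6. Leaving out each library in turn gave 0 to 3 members for AsPC-1 deltaNp63 against mock, 0 to 4 for AsPC-1 TAp63 against deltaNp63 and 0 to 4 for the line difference in the deltaNp63 effect, the highest each time without AsPC-1 deltaNp63 replicate 2. With the replicate block, 0 members passed in the 8 comparisons and 6 between the mock groups. Deviations of same-numbered libraries correlated at -0.094 to 0.293, the highest between AsPC-1 TAp63 and deltaNp63. Whether same-numbered libraries shared a batch was not tested. Single fold changes under the alternatives were tallied for a part of the comparisons only. That part was each construct against mock, the mock groups, KRT7 in both line differences, and KRT7 and KRT15 between the constructs in PANC-1. Calls gained for AsPC-1 TAp63 against deltaNp63, or by members other than KRT7 in the line differences, are therefore outside this tally. Of its 623 alternative values, 580 kept direction and call and 0 kept direction but lost the call. Another 4 kept direction and passed only there, each without AsPC-1 deltaNp63 replicate 2. The other 39 changed sign, and 1 of them passed the threshold, KRT7 on its coding transcript between the mock groups (limma adjusted p 0.000448).

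Over all genes, AsPC-1 deltaNp63 against mock gave 94 higher and 961 lower, but 249 and 170 with median centring and 51 and 148 with quantile normalization; the replicate block gave 1633 genes in all, and a fit of only the groups compared 0.

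With median centring, KRT17, KRT8 and KRT18 became 0.014, 0.053 and 0.083 for AsPC-1 TAp63, KRT17, KRT7 and KRT19 became 0.077, 0.11 and 0.15 for AsPC-1 deltaNp63, KRT19 became 0.015 for PANC-1 deltaNp63, and KRT7 became -0.053 between mock groups. With quantile normalization, KRT17 became 0.047 for AsPC-1 TAp63, KRT17 and KRT7 became 0.095 and 0.098 for AsPC-1 deltaNp63, and KRT7 became -0.051 between mock groups. On single transcripts, the main coding transcript of KRT15 gave -0.059 for AsPC-1 TAp63, 0.011 and -0.15 for PANC-1 TAp63 and deltaNp63, and 0.16 between them. The coding transcript of KRT7 gave -0.28 and -0.25 for PANC-1 TAp63 and deltaNp63, -1.25 between mock groups, and -0.011 and -0.17 for the line differences, and ENST00000388835 of KRT18 gave -0.069 for PANC-1 TAp63. The cause was not tested. The basal share in PANC-1 mock became 0.629% with KRT6B and KRT6C added and 0.615% of all keratin TPM.

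Leaving out 1 library gave these ranges for AsPC-1 TAp63: KRT15 -0.15 to 0.31, KRT17 -0.44 to 0.21, KRT18 -0.13 to 0.030 and KRT8 -0.20 to 0.039. For AsPC-1 deltaNp63 they were KRT15 -0.086 to 0.37, KRT16 -0.97 to 0.16, KRT17 -0.46 to 0.20, KRT18 -0.68 to -0.10, KRT19 -0.23 to 0.12, KRT7 -0.25 to 0.052 and KRT8 -0.84 to -0.012. In PANC-1 they were KRT18 -0.051 to 0.11 and KRT8 -0.015 to 0.14 with TAp63, and KRT18 -0.10 to 0.11, KRT19 -0.021 to 0.0089 and KRT8 -0.069 to 0.093 with deltaNp63. KRT7 in the line difference for deltaNp63 ran from 0.27 to 0.57.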

Other observations

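After the mean of each cell line was subtracted, the genes whose log2(TPM + 1) was most like that of KRT8 over the 12 libraries were ERF (Pearson r 0.983), SLC45A4 (0.98) and NONO (0.973), out of 10220 genes. KRT18 followed KRT8 at 0.969, KRT16 at 0.92 and KRT19 at 0.787, while KRT7 was at 0.334, KRT17 at 0.069 and KRT15 at 0.015. For KRT15 the most alike were ENSG00000260877 (0.825), MYO1A (0.793) and SQOR (0.783). The libraries share AsPC-1 deltaNp63 replicate 1, in which KRT8, KRT18 and KRT16 are low, so these values describe the libraries and carry no test.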
